A study of Mus musculus with 144 samples.

Results

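The genes described here are 10 NF-κB-linked inflammatory genes of the mouse: the chemokines Cxcl1, Cxcl2, Cxcl10 and Ccl2, the cytokines Il6 and Il1b, the feedback inhibitors Nfkbia, Tnfaip3 and Socs3, and the adhesion molecule Icam1. They were chosen by name from the 55359 genes of the count files, found by Ensembl identifier, and followed in all RNA-Seq libraries of primary hepatocytes (36 groups of 4). The hepatocytes came from livers of male C57BL/6NCrl mice aged 28 days, labelled wild-type (WT) or PkmΔDRE. The latter carries a whole-body deletion, made with CRISPR-Cas9, of an intronic dioxin response element (DRE) in Pkm, the gene of muscle pyruvate kinase. Cells received DMSO vehicle or 10 nM of the dioxin TCDD, the prototype ligand of the aryl hydrocarbon receptor (AhR), and were harvested at 2, 4, 8 and 12 h and then once a day from 24 h to 120 h, 9 hours in all. All groups had 100 nM dexamethasone, a synthetic glucocorticoid, in the medium throughout, and 5% fetal bovine serum during a 3-hour attachment period before exposure, followed by a medium with insulin, transferrin and selenium in place of serum. Nothing in the labels says that the 4 libraries of a group came from separate animals or isolations, so p-values measure the spread between these libraries, which may be technical.

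NF-κB is a family of dimeric transcription factors held in the cytoplasm by inhibitor of κB proteins, of which Nfkbia encodes the best known. Signals from Toll-like, interleukin-1 and tumour necrosis factor receptors activate a kinase complex that marks the inhibitor for degradation, and the freed dimers enter the nucleus and bind κB elements near their target genes. Among these targets are Nfkbia itself and Tnfaip3, which encodes the ubiquitin-editing enzyme A20, so the pathway turns on its own brakes. Cxcl1 and Cxcl2 attract neutrophils, Ccl2 attracts monocytes, Cxcl10 attracts activated T cells and is also a target of interferon, and Icam1 binds leukocyte integrins. Il6 acts on hepatocytes through STAT3, which raises Socs3, an inhibitor of the same receptor. Glucocorticoids such as dexamethasone are known to restrain many of these genes, and the isolation of hepatocytes is itself a known inflammatory stimulus.

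The promoters of 8 members are printed below because they show which of these genes hold a match to a κB consensus near the start of transcription. They also show the STAT palindrome in Icam1 and Socs3. The κB consensus was GGGRNWYYCC, where R is A or G, W is A or T, Y is C or T and N is any base. Sequences are from RefSeq on GRCm38.p6, 5′ to 3′ on the strand of the gene, from up to 160 bases before the start to the last base before it that lies outside an exon. Capitals mark matches to the κB consensus in the first 6 lines and to the palindrome TTCNNNGAA in the last 2.
Cxcl1 (chr5:90891085-90891240, plus strand): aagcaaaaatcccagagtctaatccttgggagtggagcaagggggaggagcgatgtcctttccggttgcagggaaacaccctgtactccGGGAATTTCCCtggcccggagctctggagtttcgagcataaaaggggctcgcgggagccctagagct
Cxcl2 (chr5:90903739-90903870, plus strand): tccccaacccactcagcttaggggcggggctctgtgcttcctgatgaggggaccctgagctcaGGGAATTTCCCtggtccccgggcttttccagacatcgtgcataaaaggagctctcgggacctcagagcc
Cxcl10 (chr5:92348890-92349049, minus strand): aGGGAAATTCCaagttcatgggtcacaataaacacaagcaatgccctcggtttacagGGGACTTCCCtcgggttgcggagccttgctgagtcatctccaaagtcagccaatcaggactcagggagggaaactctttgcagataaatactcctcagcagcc
Il6 (chr5:30012954-30013113, plus strand): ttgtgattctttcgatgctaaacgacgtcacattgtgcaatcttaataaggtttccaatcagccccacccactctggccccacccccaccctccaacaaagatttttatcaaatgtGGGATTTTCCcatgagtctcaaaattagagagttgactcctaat
Nfkbia (chr12:55492648-55492807, minus strand): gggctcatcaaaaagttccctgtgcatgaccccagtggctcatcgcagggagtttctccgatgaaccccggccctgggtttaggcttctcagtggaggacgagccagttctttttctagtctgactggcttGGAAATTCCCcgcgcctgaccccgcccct
Tnfaip3 (chr10:19015411-19015547, minus strand): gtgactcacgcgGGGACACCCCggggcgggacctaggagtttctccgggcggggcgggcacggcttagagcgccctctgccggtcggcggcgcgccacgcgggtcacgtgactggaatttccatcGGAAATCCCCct
Icam1 (chr9:21015780-21015939, plus strand): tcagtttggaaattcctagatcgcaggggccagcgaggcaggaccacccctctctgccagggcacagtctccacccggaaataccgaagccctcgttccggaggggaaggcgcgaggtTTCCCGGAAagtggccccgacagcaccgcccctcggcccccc
Socs3 (chr11:117969452-117969526, minus strand): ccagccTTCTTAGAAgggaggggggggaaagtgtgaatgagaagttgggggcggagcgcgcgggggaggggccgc
Of the 9 members with a RefSeq window of 300 bases (250 before the start and 50 after it), 6 held the κB consensus on at least 1 strand, while 4.51% of the 32851 windows of all genes did. Cxcl1 and Cxcl2, neighbours on chromosome 5, both had a palindromic match read on both strands, at -71 and -70 in Cxcl1 and at -97 and -96 in Cxcl2. Cxcl10 had matches at -159 and -103, Tnfaip3 at -125 and -12, Nfkbia at -29 and Il6 at -44, counted from the start. The STAT palindrome lay in the windows of Icam1 at -42 and Socs3 at -154, against 8.3% of all windows. The core of the DRE, GCGTG on either strand, occurred in 4 members (Cxcl2, Cxcl10, Tnfaip3 and Icam1), against 32.4% of all windows. Il1b held none of the 3 motifs in its window, which says only that these letters are not there, and Ccl2 had no window. Likewise, the lack of a κB match in Icam1 and Socs3 does not exclude a κB element with other letters. The Icam1 line holds tggaaattcc, which departs from the consensus at its first base. A match describes the sequence and not binding in these cells.

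The libraries held 13588848 to 30719161 read pairs on genes, with a median of 18011825. Expression is given as CPM, read pairs per 1000000 pairs of a library size scaled with the TMM method of edgeR. Log2 fold changes are given ± standard error. Pkm went against the genotype labels: over all hours its log2 fold change with TCDD was 0.61 ± 0.16 (adjusted p = 0.0156) in libraries labelled PkmΔDRE and -0.26 ± 0.17 (adjusted p = 0.228) in those labelled WT. Groups are therefore named by the label of their libraries. Cyp1a1, the best known AhR target, was induced under both labels, with a median from 8 h onward of 4110 CPM in the TCDD libraries and 3.83 CPM in the vehicle libraries labelled WT, and of 4620 and 4.86 CPM in those labelled PkmΔDRE. It lay against the treatment label in vehicle libraries 21 (48 h, 3285 CPM) and 31 (96 h, 1717 CPM) and in TCDD libraries 64 (72 h, 29.2 CPM) and 40 (2 h, 1.15 CPM), all labelled WT. The expression profile was nearest to the labelled hour in 100 libraries and to a neighbouring hour in 39. Among the other 5, library 80 (PkmΔDRE, vehicle, 4 h) was nearest to 72 h and the last-listed PkmΔDRE vehicle library at 96 h nearest to 4 h. Of 8 hepatocyte markers, 7, albumin among them, were above 0 in every library and Cyp2e1 was at 0 in 4, and their summed level had a median of 166000 CPM at 2 h and 8980 CPM at 120 h. In such bulk samples, fewer cells of a type and less RNA per cell cannot be told apart.

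Both cytokines were close to undetected. Il6 (ENSMUSG00000025746, chr5:30013114-30019981 in GRCm38) had 51 read pairs in all libraries together and was above 0 in 20 libraries. Il1b (ENSMUSG00000027398, chr2:129364570-129371139) had 205 pairs and was above 0 in 60. Their highest levels in any library were 0.707 and 1.03 CPM, and a count of 0 allows up to 0.0754 CPM in the deepest library and 0.291 CPM in the shallowest, by counting error only. Neither passed the filter on low counts in any comparison, so every test below covers the other 8 members.

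Those 8 were expressed in nearly all libraries. Per kb of exon, the mean level over all libraries was highest for Ccl2 (ENSMUSG00000035385, chr11:82035571-82037453), at 88.4 CPM per kb. Cxcl1 (ENSMUSG00000029380, chr5:90891241-90893115) had 36.7 and Nfkbia (ENSMUSG00000021025, chr12:55489410-55492647) 30.8 CPM per kb. The remaining 5 were lower: Icam1 (ENSMUSG00000037405, chr9:21015985-21028817) at 11.2, Tnfaip3 (ENSMUSG00000019850, chr10:19000910-19015657) at 8.33, Cxcl10 (ENSMUSG00000034855, chr5:92346638-92348889) at 8.01, Socs3 (ENSMUSG00000053113, chr11:117966079-117970047) at 5.14 and Cxcl2 (ENSMUSG00000058427, chr5:90903871-90905938) at 3.57 CPM per kb. The order depended on the hour. In WT vehicle, Ccl2 was the lowest of the 8 at 2 h with 5.61 CPM per kb and the highest at 72 h with 250.1 CPM per kb, whereas Cxcl10 stood at 36.3 CPM per kb at 2 h and at 2.17 at 72 h.

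The vehicle libraries give the course of these genes over time in culture with no TCDD by label. Socs3, Cxcl10, Cxcl1 and Nfkbia fell between 2 and 8 h under both labels, and Tnfaip3 fell in WT. Ccl2 rose between 2 and 8 h in WT and again between 8 and 24 h, when Tnfaip3 and Icam1 rose with it. A gene was called changed at an adjusted p under 0.05 (quasi-likelihood test of edgeR, Benjamini-Hochberg over all genes tested) with a fold change of at least 1.5. The test over all 9 hours, which has no fold threshold, called 8 of 8 members in WT, where 80.8% of all genes passed, and 7 of 8 in PkmΔDRE, where 56.8% passed. Tnfaip3 was the exception (adjusted p = 0.107).

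Socs3 and Cxcl10 had the steepest early decline. In WT vehicle, the 4 libraries held 45.5, 38.5, 129.6 and 36.6 CPM of Socs3 at 2 h and 2.16, 2.65, 4.88 and 4.96 CPM at 8 h, groups far apart, with 1 library well above the other 3 at 2 h. The log2 fold change of 8 h over 2 h was -4.05 ± 0.43 (adjusted p = 9.26e-09) in WT and -4.01 ± 0.46 (adjusted p = 1.2e-06) in PkmΔDRE. Cxcl10 held 116.1, 105.3, 66.5 and 38.9 CPM at 2 h and 3.07, 3.31, 3.46 and 4.12 CPM at 8 h in WT, and 104.3, 71.3, 120 and 225.6 CPM and 3.34, 13.2, 6.08 and 4.76 CPM in PkmΔDRE. Every 2 h library lay above every 8 h library under both labels. The fold changes were -4.55 ± 0.65 (adjusted p = 1.67e-06) and -4.30 ± 0.55 (adjusted p = 4.91e-06), and after 8 h no vehicle library of either label reached the lowest 2 h library in either gene.

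Nfkbia, the inhibitor of κB, fell by a smaller amount and with little spread. Its WT libraries held 108.5, 124.6, 116.4 and 105.6 CPM at 2 h and 54.4, 54.4, 45.1 and 47.5 CPM at 8 h, a log2 fold change of -1.17 ± 0.40 (adjusted p = 0.0209), and the PkmΔDRE libraries gave -1.15 ± 0.36 (adjusted p = 0.0345). The groups did not overlap under either label. Between 8 and 24 h it fell further in PkmΔDRE, from 60.9, 65.3, 46.5 and 52.8 CPM to 19.97, 15.4, 23.4 and 36.4 CPM (-1.32 ± 0.36, adjusted p = 0.0386). Cxcl1 went from 120.1, 146.6, 160.4 and 108.6 CPM to 61.1, 55.8, 41.3 and 39.1 CPM in WT between 2 and 8 h (-1.43 ± 0.46, adjusted p = 0.0144), and the change in PkmΔDRE was -2.07 ± 0.58 (adjusted p = 0.0183). By 24 h the WT libraries of Cxcl1 were at 77.7, 94, 95.8 and 121.7 CPM, above every 8 h library, a rise of 0.85 on the log2 scale that did not pass the test (adjusted p = 0.151). Cxcl2 went on declining and its steps did not pass in either label, with 25.4, 22.4, 23.8 and 32.2 CPM at 2 h, 6.77, 9.41, 4.62 and 6.11 CPM at 8 h and 1.86, 2.4, 2.61 and 3.82 CPM at 24 h in WT. Its change over all 9 hours passed under both labels (adjusted p = 0.000239 and 1.03e-05). The pair of neutrophil chemokines with the same κB match thus had different courses after 8 h in WT vehicle, although the difference between the genes was not tested.

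Ccl2 ran the other way. Its WT vehicle libraries held 4.74, 8.77, 3.92 and 8.09 CPM at 2 h, 21.4, 26.9, 22.8 and 19.97 CPM at 8 h, 135.2, 175.8, 184.8 and 186.1 CPM at 24 h and 333.6, 298.2, 241.7 and 264.7 CPM at 72 h. None of these groups overlapped with the next. The steps were 1.83 ± 0.45 (adjusted p = 0.00178) from 2 to 8 h and 2.77 ± 0.45 (adjusted p = 1.51e-05) from 8 to 24 h, and from 24 to 72 h 0.68 on the log2 scale, which did not pass (adjusted p = 0.233). In PkmΔDRE the same steps were 1.38 ± 0.82 (adjusted p = 0.297) and 1.46 ± 0.81 (adjusted p = 0.261), neither of them called. The 4 PkmΔDRE libraries at 24 h stood apart in pairs, with 4.68, 10.4, 82.5 and 85.1 CPM of Ccl2. Cxcl1, Tnfaip3 and Icam1 were low in the same 2 libraries, 89 and 90. Tnfaip3 dipped and then rose in WT, from 55.2, 47.9, 61.4 and 47 CPM at 2 h to 22.5, 17.95, 27.3 and 24.3 CPM at 8 h and 90.02, 76.1, 85.6 and 47.6 CPM at 24 h (-1.19 ± 0.38, adjusted p = 0.0134 and 1.57 ± 0.38, adjusted p = 0.00172). Icam1 rose from 38.7, 28.9, 30.1 and 34.3 CPM at 8 h to 71.9, 73.65, 61.7 and 97.6 CPM at 24 h in WT (1.08 ± 0.35, adjusted p = 0.0162), with all 4 later libraries above all 4 earlier ones.

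Of 32 steps of the members in WT (8 genes, 4 steps), 9 were called, 4 upward and 5 downward, against 31.9% of all genes from 2 to 8 h, 29.1% from 8 to 24 h, 22.7% from 24 to 72 h and 3.48% from 72 to 120 h. By step, 6 of 8 members were called from 2 to 8 h and 3 of 8 from 8 to 24 h, and none after 24 h, where an unadjusted p under 0.05 was also reached by none in WT. In PkmΔDRE, 5 of 32 steps were called, all downward, against 11%, 3.33%, 8.74% and 0.0564% of all genes in the same order of steps. The count in WT was 5 with no filter on low counts, and 14 when each step was fitted on its own 8 libraries. In PkmΔDRE it was 8 on the 8 libraries alone, 10 without library 80 and the last-listed library at 96 h, and 3 without library 76 of the 2 h group or any of libraries 81 to 84 of the 8 h group.

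**Figure D1:**
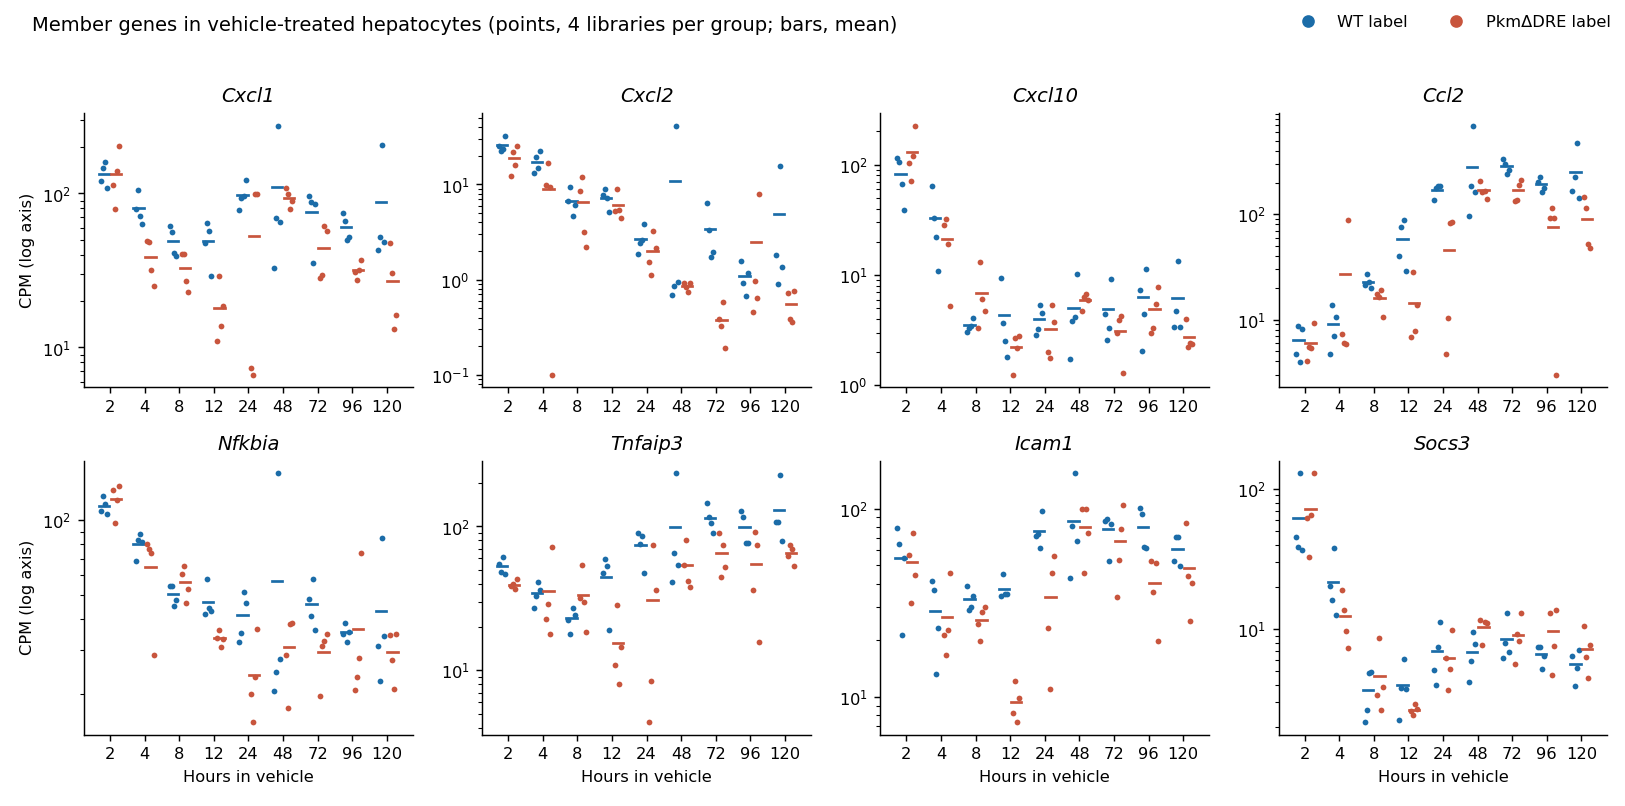
CPM of 8 members (log axis) against hours in vehicle, with 1 point per library, 4 libraries per group, bars at the group mean, and colour for the genotype label. By group mean, Socs3, Cxcl10 and Nfkbia are highest at 2 h under both labels and Ccl2 is lowest at 2 h in WT. Single WT libraries stand high at 48 and 120 h in most panels. The PkmΔDRE library with 0 CPM of Cxcl2 at 4 h is drawn at 0.1 CPM.

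Of the other genes around the pathway that were called between 2 and 8 h, most fell. All genes were called at 31.9% in WT and 11% in PkmΔDRE at this step, so several of the lists below lay near the background, and no test compared them. Of 16 genes of JAK-STAT signalling and the SOCS family, 12 fell and 1 rose in WT and 4 fell and 1 rose in PkmΔDRE, with a median log2 fold change of -1.25 and -0.61 while the median of all genes was 0. Stat3, which carries the Il6 signal to the nucleus, fell by 1.75 and 1.84 on the log2 scale. Of 11 inhibitors and feedback genes of NF-κB, 3 fell and 1 rose in WT and 4 fell in PkmΔDRE. Bcl3, a nuclear member of the inhibitor family, fell by 3.33 and 3.88, and Nfkbiz, another, by 3.31 and 2.09 on the log2 scale. Of 15 receptors and adaptors, 5 fell and 4 rose in WT, and 1, the interleukin-1 receptor gene Il1r1, fell in PkmΔDRE (-2.87 ± 0.38, adjusted p = 4.03e-07 and -2.97 ± 0.46, adjusted p = 6.17e-05). Of 10 other cytokines, 5 fell in WT and 2 in PkmΔDRE, among them Il1rn, the interleukin-1 receptor antagonist, by 2.85 and 3.09. Of 15 other chemokines tested, 2 fell and 1 rose in WT and 3 fell in PkmΔDRE, among them Cxcl12 by 1.47 and 1.96. NF-κB subunits and kinases had 2 up and 1 down of 8 in WT and 0 of 8 in PkmΔDRE. Adhesion molecules had 1 up and 2 down of 5 in WT and 1 down of 6 in PkmΔDRE. Glucocorticoid-responsive genes had 1 up and 1 down of 8 in WT and 2 down in PkmΔDRE, Dusp1, a phosphatase that limits MAP kinases, by 0.92 and 1.18.

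Markers of resident macrophages declined up to 72 h. Over the 12 macrophage and Kupffer cell markers, the summed level had a median of 316 CPM at 2 h, 185 CPM at 8 h and 62.5 CPM at 72 h, and then of 91.3 CPM at 96 h and 95.5 CPM at 120 h. Clec4f, which marks Kupffer cells, held 93.6, 68.6, 49.2 and 61.3 CPM in WT vehicle at 2 h and 0.26, 1.27, 0 and 0.906 CPM at 72 h. It was at 0.598 CPM in library 80, labelled 4 h, and at 34.1 CPM in the last-listed PkmΔDRE vehicle library at 96 h. Clec4f was at 0 in 7 libraries, the pan-leukocyte gene Ptprc in 39 and Timd4 in 54, and the other 9 markers in at most 2. Endothelial markers went from a median of 357 CPM at 2 h to 89.3 CPM at 120 h, stellate and fibroblast markers from 14.3 CPM at 2 h to 169 CPM at 96 h, and cholangiocyte markers from 79 CPM at 2 h to 18.3 CPM at 8 h and 174 CPM at 72 h. The stellate and cholangiocyte sums leaned on single genes. Over all libraries, Reln had a median of 15.2 CPM and the other stellate and fibroblast markers had medians of 0.273 to 1.78 CPM. Sox9 had a median of 45 CPM and the other cholangiocyte markers had medians of at most 3.44 CPM. Neutrophil and lymphocyte markers had medians of at most 1.35 and 0.307 CPM at 2 h. The part of these cells in the time course of the members was not tested.

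**Figure D2:**
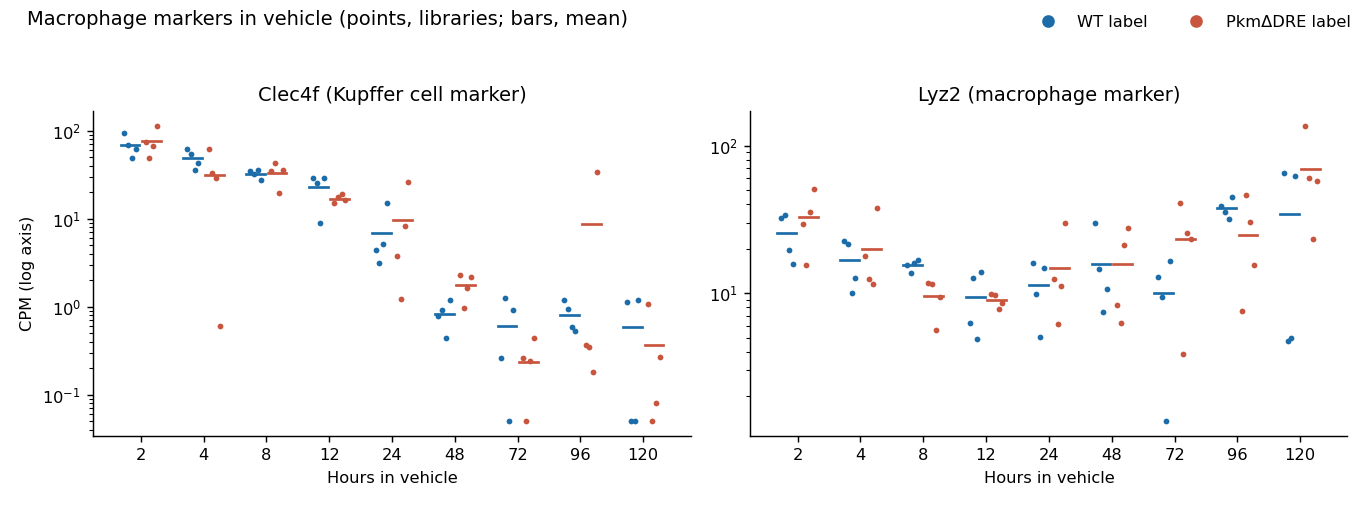
CPM (log axis) of Clec4f and Lyz2 against hours in vehicle, with 1 point per library, 4 per group, bars at the group mean, colour for the genotype label, and libraries at 0 drawn at 0.05 CPM. Clec4f falls from 49.2 CPM or more in WT at 2 h to 1.27 CPM or less at 72 h, while Lyz2, a general myeloid gene, stays above 0 in all libraries.

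Tests of TCDD against vehicle rarely passed for the members. Within label and hour, 3 of 72 tests were called in WT and 0 of 72 in PkmΔDRE. The 3 calls, all decreases, were Ccl2, Icam1 and Cxcl1 in WT at 8 h, where 3 of 8 members stood against 37.4% of all genes called, a share near that of the background. By hour from 2 to 120 h, the share of all genes called was 0%, 0%, 37.4%, 0.0321%, 0.373%, 0.00763%, 0%, 15.1% and 1.46% in WT. In PkmΔDRE it was 0%, 0%, 0.106%, 0.024%, 0.016%, 0.404%, 1.13%, 0.0793% and 0.633%. An unadjusted p under 0.05 was reached in 12 of the 72 WT tests and in 3 of the 72 PkmΔDRE tests. With DESeq2 the counts of called members were 6 and 1. Cyp1a1 itself was not called by the edgeR test at 2, 4, 48, 72 and 96 h in WT. The same held at 2, 4 and 96 h in PkmΔDRE. At 96 h its log2 fold change was 3.25 ± 1.48 (adjusted p = 0.139) in WT and 5.83 ± 1.42 (adjusted p = 0.375) in PkmΔDRE. The libraries with Cyp1a1 against their treatment label are part of the WT comparisons at 2, 48, 72 and 96 h. An uncalled test therefore does not show that an effect was small.

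In WT at 8 h, Ccl2 held 7.02, 11.3, 14.7 and 16.6 CPM with TCDD and 21.4, 26.9, 22.8 and 19.97 CPM with vehicle, so that all TCDD libraries lay below all vehicle libraries. Its log2 fold change was -0.91 ± 0.25 (adjusted p = 0.0118). Icam1 held 19, 26.7, 12.3 and 23.8 CPM and 38.7, 28.9, 30.1 and 34.3 CPM, again without overlap (-0.72 ± 0.23, adjusted p = 0.0231). Cxcl1 held 32.4, 39.6, 29.6 and 31.6 CPM and 61.1, 55.8, 41.3 and 39.1 CPM, where the highest TCDD library just passed the lowest vehicle library (-0.60 ± 0.19, adjusted p = 0.0198). Nfkbia had 38.7, 45.5, 40.2 and 38.5 CPM with TCDD against 54.4, 54.4, 45.1 and 47.5 CPM and did not pass (-0.34 ± 0.15, adjusted p = 0.0727). The libraries of this hour also differed in other ways. The summed macrophage markers were at 74 to 152 CPM with TCDD and 203 to 244 CPM with vehicle, the stellate and fibroblast markers at 41.9 to 87.9 CPM and 11.3 to 13.8 CPM, and the share of pairs that mapped to no annotated gene was 7.21% to 15.6% and 3.94% to 4.84%. Reln had by far the highest median of the stellate and fibroblast list over all libraries, so that sum may reflect a single gene. The part of these differences in the decreases was not tested. Fitted with all libraries of the label, 0 members were called in WT. Over 13 alternatives the adjusted p ran from 0.00161 to 0.113 for Ccl2, from 0.00819 to 0.0878 for Icam1 and from 0.0127 to 0.285 for Cxcl1. Without vehicle library 9 or TCDD library 47 the count was 1, and without vehicle library 10 or TCDD library 48 it was 2.

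At 24 h in WT, Cxcl1, Cxcl2 and Ccl2 lay higher with TCDD without passing the unpaired test, while Cxcl10 lay lower (-0.17 ± 0.31, unadjusted p = 0.589, adjusted p = 0.855). Cxcl1 held 128.1, 159.2, 150 and 218.5 CPM against 77.7, 94, 95.8 and 121.7 CPM, with all TCDD libraries above all vehicle libraries (0.84 ± 0.19, unadjusted p = 0.0011, adjusted p = 0.118). Cxcl2 held 3.67, 3.99, 7.44 and 9.81 CPM against 1.86, 2.4, 2.61 and 3.82 CPM, an overlap of 1 library on each side (1.32 ± 0.38, unadjusted p = 0.00529, adjusted p = 0.256). Ccl2 held 184.8, 253.6, 249.3 and 285.2 CPM against 135.2, 175.8, 184.8 and 186.1 CPM, also overlapping (0.60 ± 0.16, unadjusted p = 0.00393, adjusted p = 0.223). Socs3 went down at this hour, with 3.12, 2.31, 3.335 and 3.5 CPM against 5.15, 3.985, 7.45 and 11.3 CPM and no overlap (-1.09 ± 0.33, unadjusted p = 0.00759, adjusted p = 0.294). By the DESeq2 test, Cxcl1, Cxcl2 and Socs3 at 24 h were called as well. The sign for Cxcl1 and Ccl2 was thus negative at 8 h and positive at 24 h, and whether these hours differ was not tested.

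At 96 h in WT, Nfkbia and Cxcl1 passed the adjusted p but not the fold threshold. Nfkbia held 20.7, 24.2, 24 and 30.1 CPM with TCDD and 34.8, 38.7, 32.4 and 35.4 CPM with vehicle, without overlap (-0.46 ± 0.12, adjusted p = 0.0167). Cxcl1 held 40.5, 31.4, 36.9 and 52.4 CPM against 74.9, 66.65, 49.96 and 52.3 CPM (-0.54 ± 0.18, adjusted p = 0.0425), with 1 TCDD library inside the vehicle range. Icam1 held 64.6, 48.4, 48 and 51.5 CPM against 100.5, 94, 62.7 and 61.95 CPM (-0.53 ± 0.19, adjusted p = 0.051). On the adjusted p alone the WT count of 3 would be 5. Without vehicle library 31, whose Cyp1a1 lay against its label, or without vehicle library 32, it was 5 as well.

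In PkmΔDRE, Cxcl10 at 48 h had the largest difference of any member without overlap, with 1.05, 2.91, 1.12 and 1.47 CPM with TCDD and 4.68, 6.32, 6.75 and 6 CPM with vehicle. Its log2 fold change of -1.92 ± 0.41 (unadjusted p = 0.000832, adjusted p = 0.115) was not called by edgeR, and was called by DESeq2, with no filter on low counts and without TCDD library 130. At 120 h Cxcl10 held 0.393, 2.27, 0.856 and 1.23 CPM against 4.02, 2.22, 2.44 and 2.39 CPM (-1.24 ± 0.49, unadjusted p = 0.0291, adjusted p = 0.546), with the highest TCDD library above the lowest vehicle library. In WT at 120 h the mean of Cxcl10 was also lower, at 0.9 CPM per kb with TCDD and 2.76 with vehicle. There, vehicle library 35 held 13.3 CPM and TCDD library 71 held 5.575 CPM, each far above its group. The lowest log2 fold change of Cxcl10 at any hour in WT was -1.63, which was not called. The difference of Ccl2 at 4 h in PkmΔDRE (-2.40 ± 0.96, unadjusted p = 0.0331, adjusted p = 0.957) came with 88.5 CPM in library 80 against 5.91 to 7.26 CPM in the other vehicle libraries, and was -0.42 without that library. Tnfaip3 in WT, Socs3 in PkmΔDRE and Nfkbia under both labels stayed within 1.5-fold of vehicle at all 9 hours. Their log2 fold changes ran from -0.40 to 0.44 for Tnfaip3 and from -0.38 to 0.53 for Socs3. For Nfkbia they ran from -0.46 to 0.07 in WT and from -0.48 to 0.31 in PkmΔDRE.

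Over all 9 hours together, 0 of 8 members were called under either label by edgeR, against 9.17% of all genes in WT and 2.12% in PkmΔDRE. An unadjusted p under 0.05 was reached by 1 member in WT, Icam1 (-0.27 ± 0.13, unadjusted p = 0.0389, adjusted p = 0.0877), and by 2 in PkmΔDRE, Cxcl10 (-0.57 ± 0.19, unadjusted p = 0.00325, adjusted p = 0.0722) and Nfkbia (-0.20 ± 0.10, unadjusted p = 0.05, adjusted p = 0.347). DESeq2 also called 0 under both labels, and without hour 4 edgeR called 1 in PkmΔDRE. Without libraries 21, 31, 40 and 64, whose Cyp1a1 lay against the treatment label, Icam1 in WT was at -0.33 (edgeR, adjusted p = 0.033), short of the fold threshold. The median of the 8 members was -0.13 in WT and -0.10 in PkmΔDRE, against 0.01 and -0.03 for all genes on the log2 scale.

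**Figure D3:**
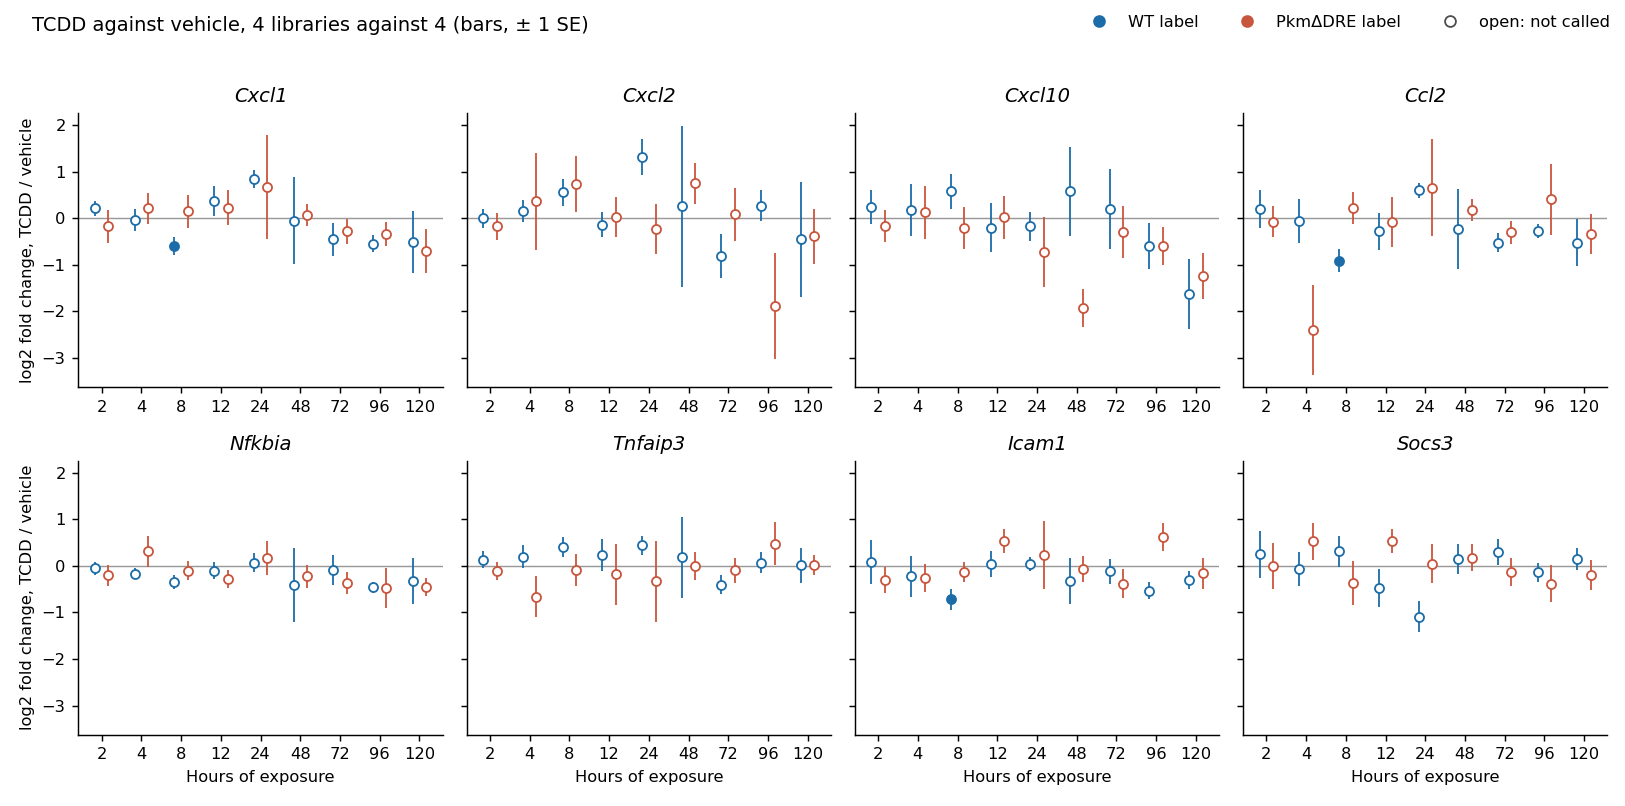
Log2 fold change of TCDD over vehicle for 8 members against hours of exposure, from 4 libraries against 4, with bars of 1 standard error, colour for the genotype label and filled points for called changes. The filled points are the 3 WT decreases at 8 h in Cxcl1, Ccl2 and Icam1, and the PkmΔDRE point of Ccl2 at 4 h, at -2.40, lies farthest below 0 with an open mark.

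Outside the 10 members, a few genes at the entry of the pathway changed with TCDD at several hours. Il1r1, the signalling receptor of interleukin-1, rose in WT at 8, 24, 96 and 120 h and in PkmΔDRE at 48, 72, 96 and 120 h. The call was kept in 7 of 13 alternative settings at 120 h in WT and at 96 h in PkmΔDRE. At the other hours it was kept in at least 12 of 13. At 24 h in WT Il1r1 held 201.1, 183.2, 190.2 and 124.3 CPM with TCDD and 19.8, 19.5, 21.3 and 18.75 CPM with vehicle, a log2 fold change of 3.22 ± 0.16 (adjusted p = 1.16e-05). At 72 h in PkmΔDRE it held 277.3, 195.5, 301.9 and 264.9 CPM and 42.4, 23.6, 20.3 and 17.3 CPM, a change of 3.28 ± 0.31 (adjusted p = 0.000326). The groups were several-fold apart at both hours. Over all hours the changes were 2.07 ± 0.14 (adjusted p = 1.43e-16) and 1.79 ± 0.14 (adjusted p = 1.04e-15). Among the other receptors and adaptors, Tlr4 (1.20 ± 0.27, adjusted p = 0.000626) and Tlr3 (0.60 ± 0.20, adjusted p = 0.0137) rose and Cd40 (-0.61 ± 0.21, adjusted p = 0.0211) fell over all hours in WT, so that 4 of 15 were called there and 1 of 15 in PkmΔDRE, against 9.17% and 2.12% of all genes. The call was kept in 12 of 13 alternative settings for Tlr4 and in 8 of 13 for Tlr3 and Cd40.

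Nfkbiz, which encodes a nuclear member of the inhibitor of κB family and is itself a target of interleukin-1, rose over all hours under both labels, by 0.83 ± 0.12 (adjusted p = 1.5e-06) and 0.59 ± 0.16 (adjusted p = 0.0203). At 24 h in WT it held 14.8, 17.3, 32.75 and 29.2 CPM with TCDD and 6.165, 5.86, 9.79 and 5.47 CPM with vehicle, without overlap (1.87 ± 0.31, adjusted p = 0.0335). This call was kept in 8 of 13 alternative settings. The rise over all hours in PkmΔDRE, just past the fold threshold, was called in 3 of 13 alternative settings. Csf1, the growth factor of macrophages, fell over all hours, with log2 fold changes of -0.78 ± 0.12 (adjusted p = 1.76e-06) in WT and -0.98 ± 0.16 (adjusted p = 1.15e-05) in PkmΔDRE. At 72 h in PkmΔDRE it held 45.55, 70.4, 63.7 and 57.3 CPM against 351.7, 216.2, 216.1 and 156.6 CPM (-2.03 ± 0.27, adjusted p = 0.00262), with every TCDD library below every vehicle library. It was called in 5 of 18 comparisons by hour, each kept in 6 to 13 of 13 alternative settings. Vcam1, which binds an integrin of monocytes and lymphocytes, fell over all hours, with -0.67 ± 0.23 (adjusted p = 0.0162) in WT and -0.79 ± 0.22 (adjusted p = 0.0267) in PkmΔDRE. Il1r1, Nfkbiz and Csf1 in WT, and Il1r1 and Csf1 in PkmΔDRE, were called over all hours in 13 of 13 alternative settings, and Vcam1 in 11 of 13 in WT and 9 of 13 in PkmΔDRE.

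By list, the tests within label and hour made 10 calls for receptors and adaptors in WT (7.63% of their tests, 8 up) and 4 in PkmΔDRE (3.1%, 4 up). For inhibitors and feedback genes they made 8 of 92 (6 up) and 0 of 91, for NF-κB subunits and kinases 6 of 72 (3 up) and 0 of 72, and for JAK-STAT and SOCS genes 9 (6.34%, 8 up) and 0. The other chemokines had 8 of 97 (7 down) and 0 of 86, the other cytokines 3 of 64 (2 down) and 3 of 59 (3 down), adhesion molecules 3 of 38 (2 down) and 0 of 40, and glucocorticoid-responsive genes 6 of 72 (4 up) and 0 of 72. In WT most of these calls came at 8 and 96 h, when 37.4% and 15.1% of all genes were called. Over all hours, the medians of the 8 lists lay between -0.24 and 0.15 in WT and between -0.30 and 0.03 in PkmΔDRE on the log2 scale. Apart from the genes named above, the calls over all hours were Chuk, an NF-κB-activating kinase, Jak2, Cxcl13, Csf3 and Klf9 upward and Nfkbie and Socs2 downward in WT, and Ccl9 downward in PkmΔDRE. These WT calls were kept in 10 to 13 of 13 alternative settings, and that of Ccl9 in 4 of 13. Ccl9 was also lower over all hours in WT (-0.55 ± 0.14, adjusted p = 0.0021), short of the fold threshold. It was called by hour in WT at 8, 96 and 120 h and at no hour in PkmΔDRE.

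**Figure D4:**
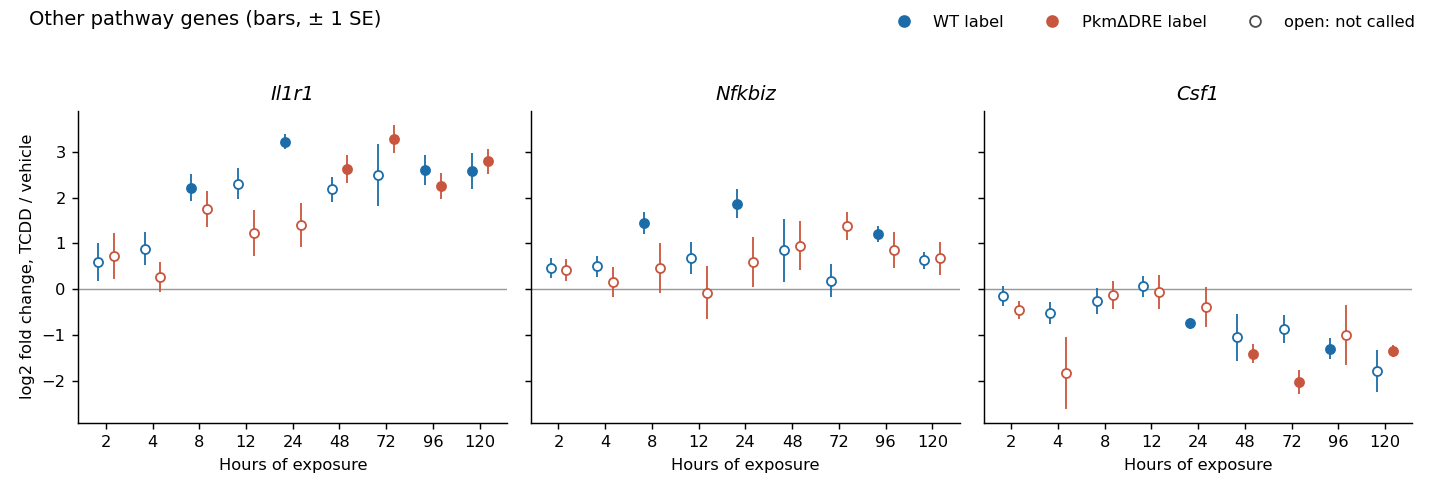
Log2 fold change of TCDD over vehicle for Il1r1, Nfkbiz and Csf1 against hours of exposure, from 4 libraries against 4, with bars of 1 standard error, colour for the genotype label and filled points for called changes. Il1r1 lies above 0 at every hour under both labels, with filled points from 2.22 to 3.28, and the filled points of Csf1 lie between -0.75 and -2.03.

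In vehicle, 5 of 8 members were lower in libraries labelled PkmΔDRE than in those labelled WT over the 9 hours, against 1.2% of all genes called. They were Cxcl1 (-0.84 ± 0.18, adjusted p = 0.00459), Cxcl2 (-1.20 ± 0.29, adjusted p = 0.0149), Ccl2 (-0.81 ± 0.22, adjusted p = 0.0335), Tnfaip3 (-0.69 ± 0.16, adjusted p = 0.0144) and Icam1 (-0.59 ± 0.13, adjusted p = 0.00704), all as log2 fold changes of PkmΔDRE over WT. Nfkbia (-0.36 ± 0.13, adjusted p = 0.127), Cxcl10 (-0.23 ± 0.18, adjusted p = 0.579) and Socs3 (0.08 ± 0.14, adjusted p = 0.87) did not pass. The median of the members was -0.64 and that of all genes 0.05. This count rested on single libraries: without WT libraries 23 (48 h) and 35 (120 h), which held the highest levels of their groups in most members, 1 member was called, Cxcl1 at -0.61 (adjusted p = 0.0245). Without PkmΔDRE libraries 89 and 90 (24 h) as well, 0 were called, although all 6 members with an unadjusted p under 0.05 kept the same sign. The changes were then -0.51 for Cxcl1 (adjusted p = 0.00734) and -0.46 for Icam1 (adjusted p = 0.0326), both below the fold threshold, -0.43 for Tnfaip3 (adjusted p = 0.0516), -0.52 for Cxcl2 (adjusted p = 0.234) and -0.54 for Ccl2 (adjusted p = 0.139). Leaving out a single hour gave 2 called members without 12 h and 3 without any of 24, 48, 72, 96 or 120 h.

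By group mean, the ratio of WT to PkmΔDRE was largest at 12 h for Icam1, Ccl2 and Tnfaip3. Icam1 held 34.2, 45.1, 35.4 and 35.1 CPM in WT and 8.27, 12.2, 7.35 and 9.84 CPM in PkmΔDRE vehicle at that hour, groups without overlap. Ccl2 held 39.9, 75.1, 87.3 and 28.9 CPM and 6.8, 28.5, 7.82 and 13.8 CPM, where all PkmΔDRE libraries lay below all WT libraries by a narrow margin. Cxcl1 held 47.6, 64.1, 56.8 and 29 CPM and 11.05, 29, 13.9 and 18.5 CPM, and Tnfaip3 47.4, 59.2, 53.1 and 19 CPM and 10.9, 28.6, 8.08 and 14.6 CPM. In both, the lowest WT library fell inside the PkmΔDRE range. By group mean, PkmΔDRE was lower than WT at 9 of 9 hours for Icam1, at 8 of 9 for Cxcl1, Cxcl2 and Ccl2, at 7 of 9 for Tnfaip3, at 6 of 9 for Nfkbia and Cxcl10 and at 3 of 9 for Socs3. The mean over the 9 hours was 59.4 CPM of Icam1 in WT and 42.5 CPM in PkmΔDRE, 82.8 and 52.6 CPM of Cxcl1, and 74.8 and 43.7 CPM of Tnfaip3. Of the 89 other listed genes, 2 were called, Tlr2, a receptor of bacterial lipoproteins (-0.78 ± 0.14, adjusted p = 0.000691), and Zc3h12a, a ribonuclease that degrades inflammatory transcripts (-0.76 ± 0.15, adjusted p = 0.00187). Without libraries 23 and 35, Tlr2 was still called (-0.68, adjusted p = 0.00402), whereas Zc3h12a fell short of the fold threshold (-0.50, adjusted p = 0.00676). The summed macrophage markers overlapped, with 21.4 to 378 CPM (median 146.4) in WT vehicle and 38.1 to 519 CPM (median 126.9) in PkmΔDRE vehicle. Endothelial markers had a median of 111.7 CPM in WT and 172.02 CPM in PkmΔDRE, and stellate and fibroblast markers, a sum that may rest mostly on Reln, 16.2 and 32.96 CPM. The part of these markers in the label difference was not tested. The direction holds for the labels as they stand, which Pkm went against, and would turn if they were exchanged. Genotype cannot be told apart from anything else that separates the 2 sets of libraries, such as separate isolations.

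**Figure D5:**
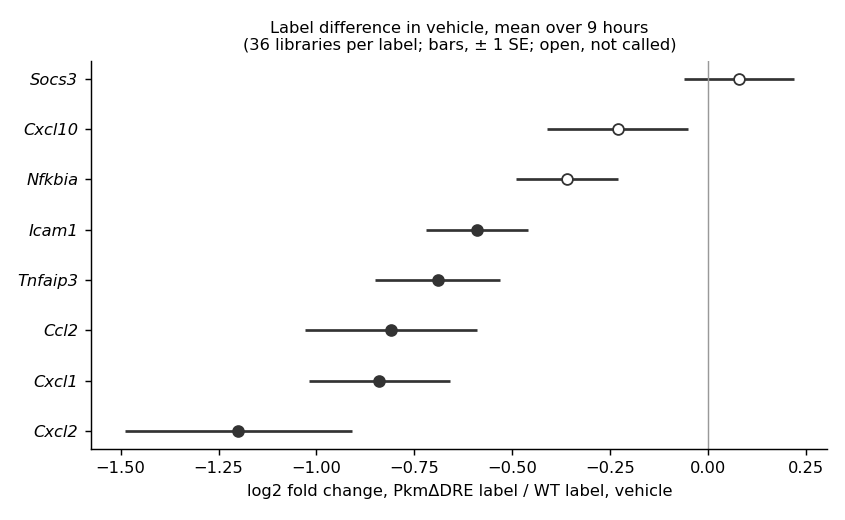
Log2 fold change of PkmΔDRE over WT in vehicle, averaged over 9 hours, for 8 members, with bars of 1 standard error from 36 libraries per label and filled points for called differences. Cxcl2 is farthest from 0 at -1.20, and Socs3, at 0.08, is the sole point above 0.

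The response to TCDD itself was not shown to differ between the labels for any member. The interaction of label and treatment, tested in the 16 libraries of each hour at an adjusted p under 0.05, called 0 of 72 member tests with edgeR and 0 with DESeq2, and 5 of 72 had an unadjusted p under 0.05. Across all genes 0.00715% were called at 48 h, 0.00695% at 72 h and 0% at the other 7 hours. The 5 were Ccl2 at 8 h (1.00 ± 0.45, unadjusted p = 0.0391, adjusted p = 0.305), Cxcl2 (-1.47 ± 0.62, unadjusted p = 0.0292, adjusted p = 0.795) and Socs3 at 24 h (1.23 ± 0.52, unadjusted p = 0.0297, adjusted p = 0.795), Cxcl10 at 48 h (-2.51 ± 1.13, unadjusted p = 0.0417, adjusted p = 1) and Icam1 at 96 h (1.12 ± 0.37, unadjusted p = 0.00742, adjusted p = 0.266), each as PkmΔDRE minus WT. The 8 pathway lists had 0 calls in this test as well.

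Across the 36 group means, the members fell into sets with like patterns, given as Pearson correlations of log2 CPM that share libraries and the course of the culture. Nfkbia went with Cxcl10 (0.92) and Cxcl2 (0.86), and Cxcl10 with Socs3 (0.83). Tnfaip3 went with Icam1 (0.85), and Ccl2 with Icam1 (0.73) and Tnfaip3 (0.72), whereas Ccl2 ran against Cxcl2 (-0.75) and Nfkbia (-0.69). Among 11442 genes compared, the closest to Cxcl1 was Ikbke (0.881), which encodes a kinase of the IKK family. The closest to Nfkbia were Isg20 (0.94), Isg15 (0.938) and Ets2 (0.938), and to Tnfaip3 Oas1b (0.91), Tpm4 (0.906) and Anp32a (0.886), where Isg20, Isg15 and Oas1b are interferon-stimulated genes. Icam1 was closest to St6gal1 (0.884), Oas3 (0.879) and Hk2 (0.877), Cxcl10 to Gadd45g (0.954), Acat1 (0.945) and Epas1 (0.943), and Socs3 to Efna1 (0.961), Sdc2 (0.949) and Gpr146 (0.948). Ccl2 was closest to Psmd10 (0.969) and Cfap52 (0.967), Cxcl2 to Cyp7b1 (0.937), Slc13a5 (0.934) and Runx1 (0.933), and after Ikbke the closest to Cxcl1 were Zbtb7c (0.833) and As3mt (0.824).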

How the data were processed

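The authors trimmed reads and aligned read pairs to GRCm39 (FastQC 0.11.3, Trimmomatic 0.39, STAR 2.7 and DESeq2 are named in the submitters' processing notes) and deposited raw counts of uniquely mapped pairs per gene for each library, without normalization. The unstranded count was used, since strand 1 held 50.3% to 51.5% of stranded counts in every library but library 65 (63.3%). Lines that name no gene (16.8% to 48.0% of pairs) were left out. Symbols, exon lengths and positions are from GENCODE M21 on GRCm38 and gave 52083 of 55359 genes a symbol. No pair of libraries of the same group was within sampling noise of each other. Pairs from different groups were not compared.

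In edgeR 4.0.16 (R 4.3.3, limma 3.58.1, data.table version 1.17.8), counts were TMM-scaled, filtered with filterByExpr (count minimum 10, total minimum 15) and tested with the robust quasi-likelihood test. TCDD was compared with vehicle in the 8 libraries of a label and hour, and over all hours in the 72 libraries of a label. Time steps used the 36 vehicle libraries of a label, the label difference the 72 vehicle libraries, and the interaction 16 libraries per hour. Thresholds were an adjusted p of 0.05 (Benjamini-Hochberg over all genes tested) and, except for the interaction and the test over all hours, a fold change of 1.5. The test of TCDD against vehicle was run on simulated counts for WT at 24 h, with a common spread for all genes and no deviant libraries. That check does not cover groups in which a library stands apart. Alternatives were DESeq2 1.42.0, RLE scaling, no filter, no fold threshold, 1 fit per label or of all libraries, the 8 libraries of a time step alone, and leaving out each library or hour. Leaving out library 80 and the last-listed PkmΔDRE vehicle library at 96 h, libraries 21, 31, 40 and 64, libraries 23 and 35, or libraries 23, 35, 89 and 90 was chosen after seeing the data.

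The members, 8 pathway lists and 7 marker lists were chosen with earlier results of these data known. Named were all members, from each list at most 4 genes per family of comparisons (those called most often, ties by size of change), and the 3 genes most correlated with each member over group means of log2 CPM (mean of at least 1 CPM, prior count of 1, predicted genes left out), except that some results are not reported here. Figures used Python 3.11.15, numpy 2.4.6 and matplotlib 3.10.9. Counts per gene do not separate isoforms.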

Additional observations from a re-analysis of the deposited data

Results flagged for a closer look

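In 36 of 288 groups of 4 libraries (8 members, 36 groups each), 1 library lay far from the other 3 relative to the range of the group. The cutoff flags about 1 in 20 groups of independent values with a normal spread. The CPM were not put on a log scale and the members share libraries, so that rate is only a rough guide. WT library 71 (TCDD, 120 h) was high in 6 members: Cxcl1 at 133.1 CPM, Cxcl2 at 12 CPM, Cxcl10 at 5.575 CPM, Ccl2 at 353.4 CPM, Nfkbia at 65.5 CPM and Tnfaip3 at 219.5 CPM. WT library 23 (vehicle, 48 h) was high in 5: Cxcl1 at 275.5 CPM, Cxcl2 at 41.45 CPM, Ccl2 at 693.2 CPM, Nfkbia at 154.4 CPM and Tnfaip3 at 234.4 CPM. WT library 35 (vehicle, 120 h) was high in Cxcl1 at 207 CPM, Cxcl2 at 15.7 CPM and Cxcl10 at 13.3 CPM, and WT library 59 (TCDD, 48 h) in Cxcl2 at 48 CPM and Tnfaip3 at 320.6 CPM. These 4 libraries held 16 of the 36 values.

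PkmΔDRE library 80 (vehicle, 4 h), whose profile was nearest to 72 h, was high in Ccl2 at 88.5 CPM and low in Nfkbia at 28.7 CPM. The last-listed PkmΔDRE vehicle library at 96 h, nearest to 4 h, was high in Cxcl2 at 7.94 CPM and Nfkbia at 73.6 CPM.

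The other values came 1 or 2 to a library. In WT with vehicle they were Nfkbia at 57.8 CPM and Icam1 at 45.1 CPM in library 14 (12 h), Socs3 at 129.6 CPM in library 3 (2 h), and a low 52.8 CPM of Icam1 in library 27 (72 h). In WT with TCDD they were Socs3 at 34.3 CPM in library 43 (4 h) and 4.79 CPM in library 50 (12 h), Nfkbia at 72.8 CPM in library 63 and Cxcl10 at 16.6 CPM in library 64 (both 72 h), Tnfaip3 at 138.9 CPM in library 65 and a low 1.115 CPM of Cxcl2 in library 67 (both 96 h). In PkmΔDRE with vehicle they were Cxcl10 at 4.02 CPM in the first-listed library at 120 h and a low 7.715 CPM of Socs3 in library 94 (48 h). In PkmΔDRE with TCDD they were Tnfaip3 at 32.6 CPM in the second-listed library at 4 h, Cxcl10 at 6.19 CPM in the third-listed at 24 h, Socs3 at 10.8 CPM in the first-listed and a low 24.4 CPM of Nfkbia in the last-listed at 96 h.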

How the results depend on the processing

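No paired analysis was possible because the labels give no replicate number, and the order of libraries within a group was not taken as one. Leaving out 1 library at a time, the number of members called ran from 1 to 5 (3 with all libraries) for TCDD by hour in WT, from 0 to 1 (0) in PkmΔDRE, from 7 to 8 (8) for the test over all hours of vehicle in WT, from 7 to 8 (7) in PkmΔDRE, from 8 to 11 (9) for time steps in WT, from 3 to 6 (5) in PkmΔDRE and from 0 to 0 (0) for the interaction. For TCDD by hour, DESeq2 gave 6 members in WT and 1 in PkmΔDRE, 1 fit per label gave 0 in WT, the adjusted p alone gave 5 in WT, and no filter gave 1 in PkmΔDRE. For TCDD over all hours, leaving out hour 4 gave 1 in PkmΔDRE. Leaving out libraries 21, 31, 40 and 64 left the WT count at 0, although Icam1 then passed the adjusted p (0.033) and not the fold threshold. For time steps, no filter gave 5 and the 8 libraries of a step alone 14 in WT, and in PkmΔDRE these 8 libraries gave 8 and leaving out library 80 and the last-listed library at 96 h gave 10. For the label difference, the count of 5 became 2 without hour 12, 3 without hour 24, 48, 72, 96 or 120, 1 without libraries 23 and 35, and 0 without libraries 23, 35, 89 and 90, and the cause was not tested. Results of single genes were followed through these settings if called or, for members, if the unadjusted p was under 0.05. None of these changed sign, which this choice of results favours. Counting each result under each setting, 4989 kept their side of the threshold, 445 lost a call and 28 gained one. Other results named in the text were not followed in this way.

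Depth limits Il6 and Il1b, which lay near or under the 3-count floor of 0.0754 to 0.291 CPM, and Cxcl2 after 24 h. With 4 libraries per group, changes of members below 1.5-fold could be seen only where libraries lay close together, and larger ones could be missed as well.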

Other observations

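The highest levels of several members came from libraries at the same place in the order of the library numbers under both treatments. In WT at 48 h, the third-listed library held 275.5 CPM of Cxcl1 with vehicle and 268.5 CPM with TCDD, while the other 6 libraries held 5.97 to 76.98 CPM. Ccl2 was at 693.2 and 586.2 CPM in these 2 libraries and Tnfaip3 at 234.4 and 320.6 CPM. At 120 h in WT, the third-listed libraries held 207 and 133.1 CPM of Cxcl1 against 34.9 to 51.9 CPM in the other 6. In PkmΔDRE at 24 h, the first 2 libraries of each treatment held 3.37 to 28.2 CPM of Cxcl1 and the last 2 held 98.9 to 176.1 CPM. The labels do not say whether libraries at the same place share an isolation, and the order was not used to pair them.

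Socs3 showed the same at 2 h: the third-listed WT libraries of both treatments held at least 129.6 CPM, against 32.99 to 79 CPM in the other 6, and the last-listed PkmΔDRE library held 129.6 and 137.3 CPM against 29.5 to 68.5 CPM.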
